A study of Mus musculus with 24 samples.

Results

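The 50 genes described here encode the machinery that copies DNA in S phase and the factors that carry a cell from G1 into S. They were taken by symbol from the gene expression table of a study of C2C12 cells. All 50 were among the 24043 genes of that table, and all 50 reached a mean of at least 1 FPKM (fragments per kilobase of transcript, scaled to the mapped fragments of the library) in at least 1 group, the condition for the 12389 genes that were tested. By role they are 11 genes of origin licensing, 6 of helicase activation, 6 of the sliding clamp and its loader, 8 of the polymerases and primase, 5 of strand maturation and single-strand binding, 5 of nucleotide supply, 5 regulators of the G1/S transition and 4 of chromatin assembly at the fork and repair.

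C2C12 is an established mouse myoblast line, a single cell line whose cells divide in serum-rich medium and stop dividing and fuse into myotubes when serum is lowered. The study compared 4 conditions, each with 2 RNA-seq libraries that the design text calls biological replicates A and B. Growth medium was DMEM with 10% fetal bovine serum, given at 21% oxygen (normoxic growth medium) or 2% oxygen (hypoxic growth medium). Differentiation medium was DMEM with 2% horse serum and an insulin, transferrin and selenium supplement, again at 21% oxygen (normoxic differentiation medium) or 2% oxygen (hypoxic differentiation medium). The number of days in differentiation medium is not given in the sources used here, and the H3K27me3 and input libraries of the 24 samples were not analysed here.

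Relative depth, read from the steps of low values, was 0.633 in hypoxic differentiation replicate B and between 0.682 and 0.899 in the others, with hypoxic differentiation replicate A set to 1. The absolute depth is unknown. Myog, the myogenic factor myogenin, was 2576 and 2642 FPKM in normoxic differentiation medium but 4.49 and 2.14 FPKM in hypoxic differentiation medium. The 6 muscle differentiation markers had medians of 3.87 and 3.08 FPKM in normoxic and 0.421 and 0.501 FPKM in hypoxic growth medium. The 5 myoblast markers had a median of 64.9 to 91.0 FPKM in the 4 libraries at 21% oxygen. At 2% oxygen their median was 10.2 to 15.9 FPKM, so they were lower in both media. The 6 hypoxia markers had a median of 34.9 to 70.9 FPKM in the 4 libraries at 21% oxygen and of 306.0 to 509.4 FPKM in the 4 at 2%. Of 6 markers of blood, endothelial and epithelial cells, 5 stayed at or below 0.657 FPKM in every library, while Cd68, a macrophage and lysosome protein, was 25.8 and 42.8 FPKM in hypoxic differentiation medium and 1.76 to 3.57 FPKM elsewhere. In bulk RNA, fewer cells in S phase and less RNA per cell cannot be told apart.

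In G1, the origin recognition complex, Cdc6 and Cdt1 load the Mcm2 to Mcm7 helicase onto DNA, and geminin (Gmnn) blocks Cdt1 after S phase has begun. Cdc45 and the GINS complex then turn the helicase on, and polymerases, a sliding clamp (Pcna) and ligase copy both strands while ribonucleotide reductase, thymidylate synthase and thymidine kinase supply deoxynucleotides. Many of these genes are transcribed under E2F factors, which the retinoblastoma protein holds inactive in cells that have left the cycle, as myoblasts do when they form myotubes.

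Because E2F factors are the shared regulators of this group, the promoter sequence was searched for E2F motifs. RefSeq promoters (build GRCm38.p6, 250 bases before to 50 bases after a start site) were found for 41 of the 50 genes, and Gmnn, Mcm4, Gins1, Gins2, Gins4, Rfc2, Prim2, Pole and Ccne2 had no entry in the table. The motifs were TTTCCCGC, TTTCGCGC, TTTGCCGC and TTTGGCGC on either strand. At least 1 of them lay in the window of 15 of the 41 genes (36.6%), against 4.73% of the 9196 tested genes with a promoter entry and 2.61% of all 27025 genes of the promoter table. Upstream of the start site the figures were 9 of 41 (22%) and 3.95% of the tested genes. A list of 52 other replication genes had similar shares, with a motif in 14 of 42 windows (33.3%) and upstream in 10 of 42 (23.8%). The motif was thus not particular to the 50 genes. The mitosis genes used for comparison held an E2F motif in 1 of 17 promoters (5.88%), and instead held TTTGAA, the letters of the cell cycle homology region, in 12 of 17 (70.6%), against 7 of 41 (17.1%) for the replication genes and 13.8% of the tested genes. CCAAT, which NF-Y binds, was in 26 of 41 (63.4%) of the replication genes, in 15 of 17 (88.2%) of the mitosis genes and in 43.0% of the tested genes. Motifs on both strands were counted, and 1 E2F match of the 50 genes shared a base with a TTTGAA or CCAAT match. A match here is a string of letters and no evidence of binding.

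The stretches below show the upstream E2F motif with its flanks for the most highly expressed matching gene of 4 roles, and for Mcm5 and Mcm6, which were added after they were seen to hold several matches. Each is read 5′ to 3′ on the strand of the gene, with the E2F motif, or its reverse complement, in capitals. The Mcm7 stretch is chr5:138172016-138172073 (minus strand), with the motif 165 bases before the start site. The Gins3 stretch is chr8:95633493-95633550 (plus strand), with the motif 41 bases before it. The Rfc3 stretch is chr5:151651209-151651243 (minus strand), at 10 bases, and the Pola1 stretch is chrX:93632261-93632318 (minus strand), at 138 bases. The Mcm5 stretch, chr8:75109331-75109392 (plus strand), holds 2 overlapping matches on opposite strands, and the Mcm6 stretch, chr1:128359720-128359840 (minus strand), holds 3 matches between 47 and 110 bases before the start site.
Mcm7: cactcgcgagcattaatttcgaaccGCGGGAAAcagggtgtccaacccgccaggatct
Gins3: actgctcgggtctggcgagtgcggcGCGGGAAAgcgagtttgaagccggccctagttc
Rfc3: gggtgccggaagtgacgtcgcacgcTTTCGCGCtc
Pola1: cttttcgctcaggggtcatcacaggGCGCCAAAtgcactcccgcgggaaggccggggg
Mcm5: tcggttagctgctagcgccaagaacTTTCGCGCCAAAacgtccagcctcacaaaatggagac
Mcm6: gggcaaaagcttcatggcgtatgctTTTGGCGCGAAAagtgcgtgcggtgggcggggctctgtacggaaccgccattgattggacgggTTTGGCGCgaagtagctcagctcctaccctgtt

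Across all 8 libraries the most abundant of the 50 transcripts was the clamp Pcna, with a mean of 76.6 FPKM, followed by Orc6 (42.7 FPKM), Rrm2 (37.9 FPKM) and Mcm7 (31.1 FPKM). The least abundant were Orc1 (1.29 FPKM) and Cdc6 (1.80 FPKM). At 21% oxygen the median of the 50 genes was 11.7 and 10.4 FPKM with growth medium and 3.52 and 3.42 FPKM with differentiation medium. At 2% oxygen it was 8.29 and 7.68 FPKM with growth medium, while with differentiation medium it was 6.32 FPKM for replicate A and 19.0 FPKM for replicate B. By its median the group was lowest in both normoxic differentiation libraries and highest in a single hypoxic differentiation library, and the replicates of that condition did not resemble each other.

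**Figure D1:**
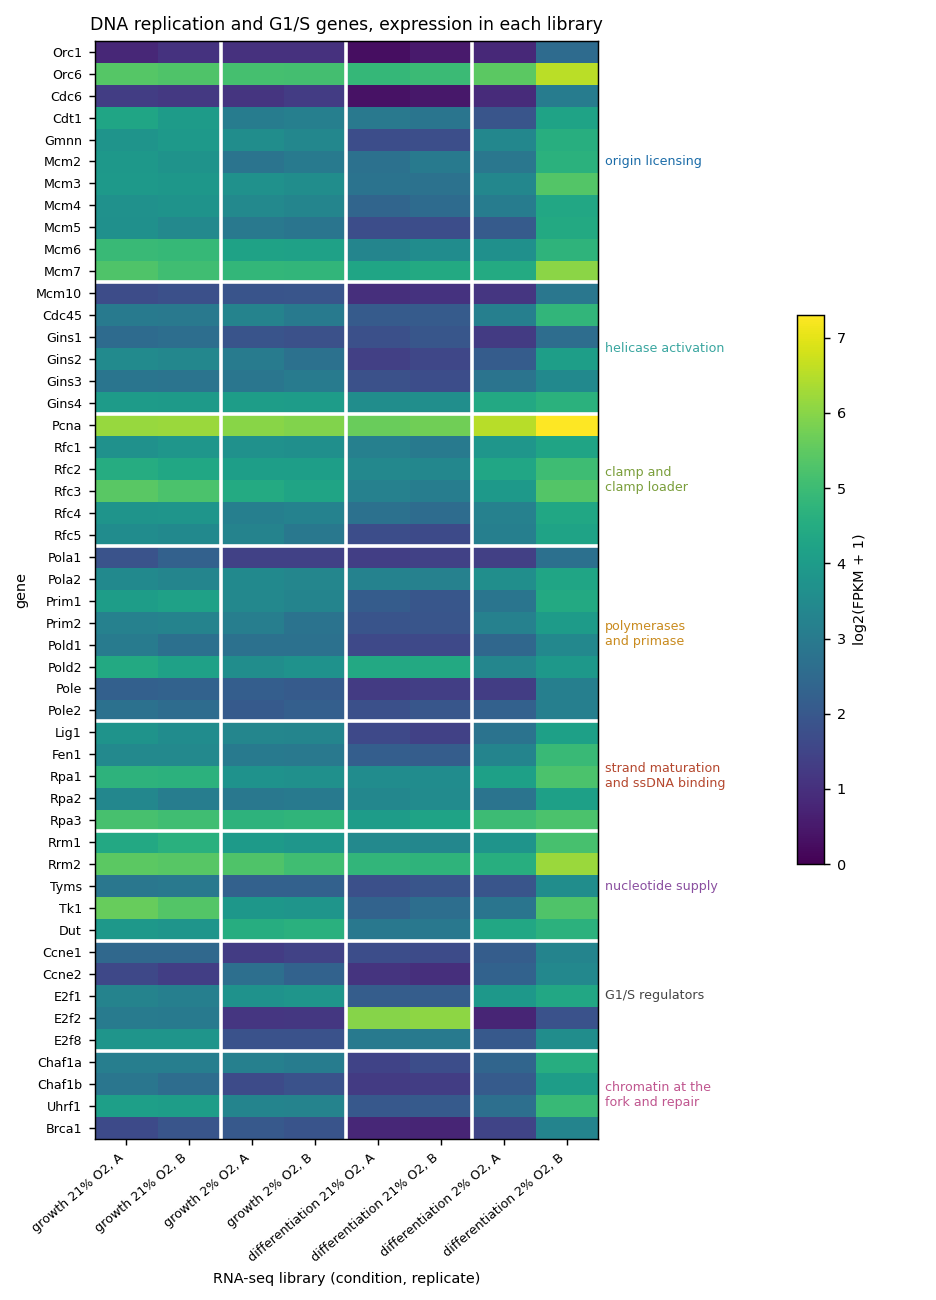
Expression of the 50 genes on the log2(FPKM + 1) scale, with one row per gene ordered by role and one column per RNA-seq library. The 2 normoxic differentiation columns are the darkest for most rows, E2f2 is brightest there, and the last column, hypoxic differentiation replicate B, is brighter than replicate A beside it in all 50 rows.

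The first comparison asked how these genes respond when myoblasts move to differentiation medium at 21% oxygen. Transcripts for nearly every step of replication were lower after the change of medium. Both normoxic differentiation libraries lay below both normoxic growth libraries for 47 of the 50 genes, and below the 6 other libraries for 38. E2f2 was the exception in the other direction, 9.11-fold higher. The share of all tested genes that separated in these ways was not counted. In the fit of all 8 libraries (limma on log2(FPKM + 1), Benjamini-Hochberg adjusted over 12389 genes, threshold 0.05), 25 of the 50 genes were lower and 1 was higher. Among all tested genes 41% were called lower and 25.5% higher, so 25 of 50 is not far from the background. The median change of the 50 genes was -1.02 on the log2 scale, against -0.20 for all tested genes. With median-of-ratios scaling of the libraries the median of all tested genes moved to 0.02 and that of the 50 genes to -0.80, with 20 lower.

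That fit takes its estimate of spread from all 4 conditions, and the hypoxic differentiation replicates differ far more than the others. Over the 50 genes, the log2 difference of replicate B minus A had a median of 1.34 for hypoxic differentiation medium and of -0.07 to 0.02 for the other conditions. Around that shared shift, its SD across the genes was 0.58 for hypoxic differentiation medium and 0.12 to 0.16 for the others. Across all tested genes this SD was 0.57 for hypoxic differentiation medium and 0.36 to 0.44 for the others. With neither hypoxic differentiation library in the fit, a choice made after seeing the data, 46 of the 50 genes were lower, E2f2 was higher, and Pola2, Pold2 and Rpa2 did not pass the threshold. In that fit 46.2% of all tested genes were called lower and 28.7% higher. The fitted changes themselves are the same in both fits, and only their errors differ.

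Origin licensing genes were all lower in the fit of 6 libraries (11 of 11, median -1.14), and 4 of them also in the fit of all 8. Gmnn, which restrains Cdt1, was 12.7 and 14.2 FPKM in normoxic growth medium and 2.29 and 2.35 FPKM in normoxic differentiation medium. The change of Gmnn was the largest of this role, -2.12 ± 0.35 (log2 ± SE, adjusted p 0.00163 with all 8 libraries by limma). Cdt1 was 18.4 and 15.1 FPKM against 6.67 and 6.18 FPKM, a smaller drop, so that the ratio of Cdt1 to Gmnn was 1.45 and 1.07 in normoxic growth medium and 2.91 and 2.63 in normoxic differentiation medium. The summed level of Mcm2 to Mcm7, the helicase subunits, was 119.8 and 108.7 FPKM in the former and 45.7 and 51.1 FPKM in the latter. Within the helicase the subunits did not keep the same proportions, since the highest (Mcm7) exceeded the lowest (Mcm5) by 3.30-fold and 3.27-fold in normoxic growth medium and by 8.08-fold and 8.98-fold in normoxic differentiation medium. Orc6, an origin recognition subunit, had the smallest change, from 40.8 and 38.2 FPKM to 28.3 and 30.4 FPKM (-0.42 ± 0.31, adjusted p 0.27 with all 8 libraries and 0.00185 with 6, limma).

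All 6 genes of helicase activation were lower in the fit of 6 libraries. Gins2, a GINS subunit, moved most, from 10.2 and 9.32 FPKM to 1.59 and 1.93 FPKM (-1.96 ± 0.56, adjusted p 0.0187 with all 8 libraries, limma). Gins4, its partner in the same complex, moved least, from 15.1 and 14.6 FPKM to 10.9 and 11.2 FPKM (-0.39 ± 0.10, adjusted p 0.0120). Gins1 and Gins3, the remaining subunits of the complex, were 4.90 and 5.27 FPKM against 2.41 and 2.85 FPKM, and 6.10 and 5.94 FPKM against 2.49 and 2.30 FPKM. The fitted falls within GINS thus ranged widely, and the difference between subunits was not tested.

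All 6 clamp and clamp loader genes were lower in the fit of 6 libraries. Rfc3, a subunit of the loader that opens the clamp, was 42.1 and 36.8 FPKM in normoxic growth medium and 8.25 and 7.53 FPKM in normoxic differentiation medium (-2.18 ± 0.40, adjusted p 0.00266 with all 8 libraries, limma). Pcna, the clamp itself, had the highest level of this role, at 71.6 and 72.7 FPKM against 48.4 and 51.5 FPKM (-0.52 ± 0.23, adjusted p 0.0805 with 8 libraries and 0.000575 with 6). Pcna has the processed pseudogenes Pcna-ps1 and Pcna-ps2, and reads shared with them could blur its value.

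Of the 8 polymerase and primase genes, 6 were lower in the fit of 6 libraries. Prim1, the catalytic primase subunit, was 15.6 and 17.1 FPKM in normoxic growth medium and 3.33 and 2.88 FPKM in normoxic differentiation medium (-2.08 ± 0.45, adjusted p 0.00597 with all 8 libraries, limma). Pold2, the accessory subunit of polymerase delta, was 20.7 and 17.0 FPKM against 20.0 and 20.8 FPKM (0.11 ± 0.18, adjusted p 0.598). The libraries of the 2 groups overlapped for Pold2, while those of Pold1, the catalytic subunit, did not, at 7.15 and 5.41 FPKM against 2.08 and 2.08 FPKM. Pola2, of the polymerase alpha complex, was 10.0 and 9.07 FPKM against 8.35 and 8.27 FPKM.

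Of the 5 genes of strand maturation and single-strand binding, 4 were lower in both fits. Lig1, the ligase that joins Okazaki fragments, was 12.4 and 10.7 FPKM in normoxic growth medium and 2.03 and 1.64 FPKM in normoxic differentiation medium (-2.15 ± 0.40, adjusted p 0.00293, limma). Rpa2 was 9.48 and 7.56 FPKM against 9.40 and 10.4 FPKM (0.20 ± 0.39, adjusted p 0.666), while its partners in the trimeric single-strand binding protein RPA were lower, Rpa1 at 25.2 and 25 against 10.7 and 10.7 FPKM and Rpa3 at 35.4 and 32.1 against 15.4 and 17.7 FPKM.

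All 5 genes of nucleotide supply were lower in the fit of 6 libraries. Tk1, the S-phase thymidine kinase, had the largest fall of the 50 genes, from 47.5 and 39.4 FPKM to 3.96 and 5.17 FPKM, a 9.51-fold difference of means (-3 ± 0.69, adjusted p 0.00762 with all 8 libraries, limma). Rrm2, the regulated subunit of ribonucleotide reductase, was 42.9 and 41.5 FPKM against 27.2 and 25.8 FPKM (-0.65 ± 0.45, adjusted p 0.24 with 8 libraries and 0.000948 with 6). The groups did not overlap for either gene. Tyms has a transcribed pseudogene, Tyms-ps, so its value of 6.37 and 6.80 against 2.42 and 2.80 FPKM is less certain.

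Among the G1/S regulators, 4 of 5 were lower in the fit of 6 libraries and E2f2 was higher. E2f2, an E2F factor of the activator class, was 7.24 and 6.83 FPKM in normoxic growth medium and 62.4 and 65.7 FPKM in normoxic differentiation medium (3.02 ± 0.32, adjusted p 0.000198 with all 8 libraries, limma). The other activator in the group, E2f1, went the other way, from 8.61 and 7.83 FPKM to 3.49 and 3.44 FPKM, so the ratio of E2f2 to E2f1 was 0.841 and 0.873 in growth medium and 17.9 and 19.1 in differentiation medium. Ccne2, a cyclin that activates Cdk2, moved least, from 2.00 and 1.56 FPKM to 1.14 and 0.981 FPKM (-0.43 ± 0.34, adjusted p 0.298 with 8 libraries and 0.0396 with 6). E2f2 was 1 of the 50 genes whose promoter window held an E2F motif, in its case downstream of the start site, and its direction was opposite to that of the other 14.

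All 4 genes of chromatin at the fork and repair were lower in the fit of 6 libraries. Uhrf1, which carries DNA methylation through replication, was 16.5 and 15.6 FPKM in normoxic growth medium and 3.00 and 3.19 FPKM in normoxic differentiation medium (-2.06 ± 0.62, adjusted p 0.0237 with all 8 libraries, limma). Brca1, a repair protein active in S phase, was 2.09 and 2.83 FPKM against 0.763 and 0.694 FPKM (-0.99 ± 0.51, adjusted p 0.13 with 8 libraries and 0.000598 with 6). Values near 1 FPKM are compressed on this scale, so the change of Brca1, Orc1 and Cdc6 is understated.

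The second comparison asked how 2% oxygen alters these genes while the cells are kept in growth medium. The genes did not all go one way. Both hypoxic libraries lay below both normoxic ones for 36 of the 50 genes. Both lay above the normoxic ones for 6 (Mcm10, Gins3, Gins4, Dut, Ccne2 and E2f1). The share of all tested genes on either side was not counted. In the fit of all 8 libraries 6 genes were lower (Pold2, Rpa1, Rpa3, Ccne1, E2f2 and E2f8) and 2 were higher (Dut and E2f1), where 28% of all tested genes were called lower and 13.5% higher. With neither hypoxic differentiation library in the fit, 31 were lower, 3 were higher (Dut, Ccne2 and E2f1) and 16 did not pass, against 37.1% of all tested genes called lower and 18% higher. The median change of the 50 genes was -0.37, against -0.14 for all tested genes. With upper-quartile scaling these medians were -0.20 and 0.00036, and 5 genes were lower.

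**Figure D2:**
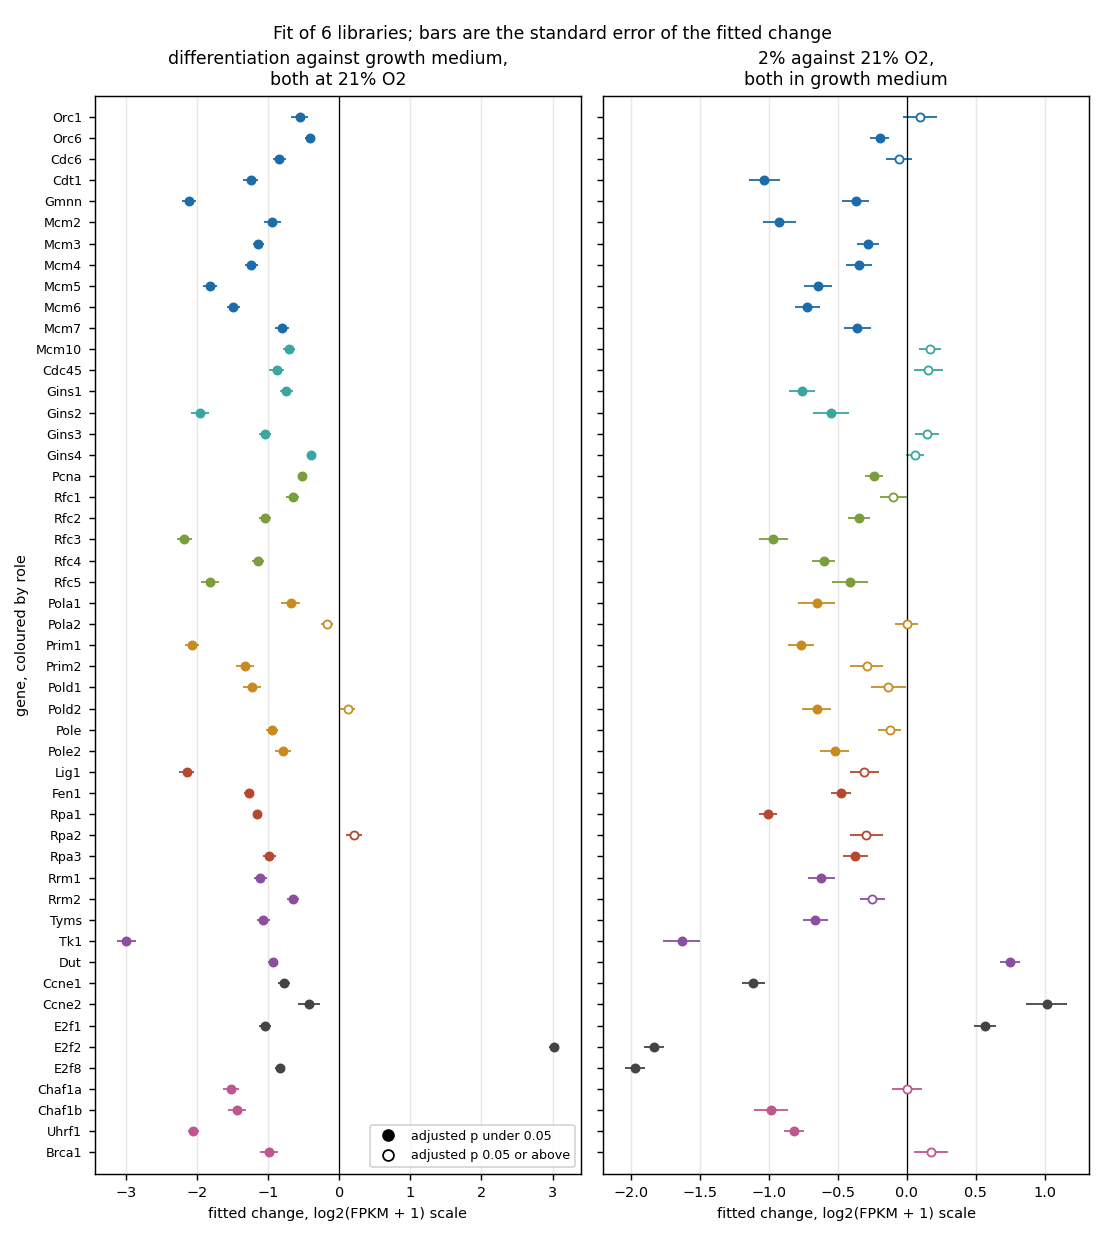
Fitted changes of the 50 genes in the fit without the hypoxic differentiation libraries, as points with standard errors on the log2(FPKM + 1) scale, ordered and coloured by role, with filled points past an adjusted p of 0.05. In the left panel, medium at 21% oxygen, 46 filled points lie to the left of zero and E2f2 lies far to the right at 3.02. In the right panel, oxygen in growth medium, the points spread from E2f8 at -1.97 to Ccne2 at 1.01.

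The regulators of G1/S entry moved in different directions under hypoxia. E2f8, an atypical E2F that represses E2F targets, was 13.0 and 13.1 FPKM in normoxic and 2.58 and 2.57 FPKM in hypoxic growth medium (-1.97 ± 0.43, adjusted p 0.0114 with all 8 libraries, limma). E2f1 was 8.61 and 7.83 FPKM against 12.3 and 13.0 FPKM (0.56 ± 0.16, adjusted p 0.0322). Neither call held when 1 of the 4 growth medium libraries was left out. The ratio of E2f1 to E2f8 was 0.664 and 0.600 in normoxic and 4.76 and 5.04 in hypoxic growth medium, with no overlap between groups.

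The E-type cyclins and E2f2 also differed. Ccne1 was 4.57 and 4.57 FPKM in normoxic growth medium and 1.46 and 1.70 FPKM in hypoxic growth medium, while Ccne2 was 2.00 and 1.56 FPKM against 5.36 and 3.92 FPKM. The ratio of Ccne1 to Ccne2 was 2.28 and 2.92 at 21% oxygen and 0.273 and 0.433 at 2% oxygen, so the more abundant E-type cyclin transcript was a different one at each oxygen level. Ccne1 passed the threshold in both fits. Ccne2, singled out after its values were seen, passed in the fit of 6 libraries alone (adjusted p 0.00238, and 0.0522 with all 8, limma). E2f2 was 7.24 and 6.83 FPKM against 1.24 and 1.28 FPKM, a 5.60-fold difference of means.

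**Figure D3:**
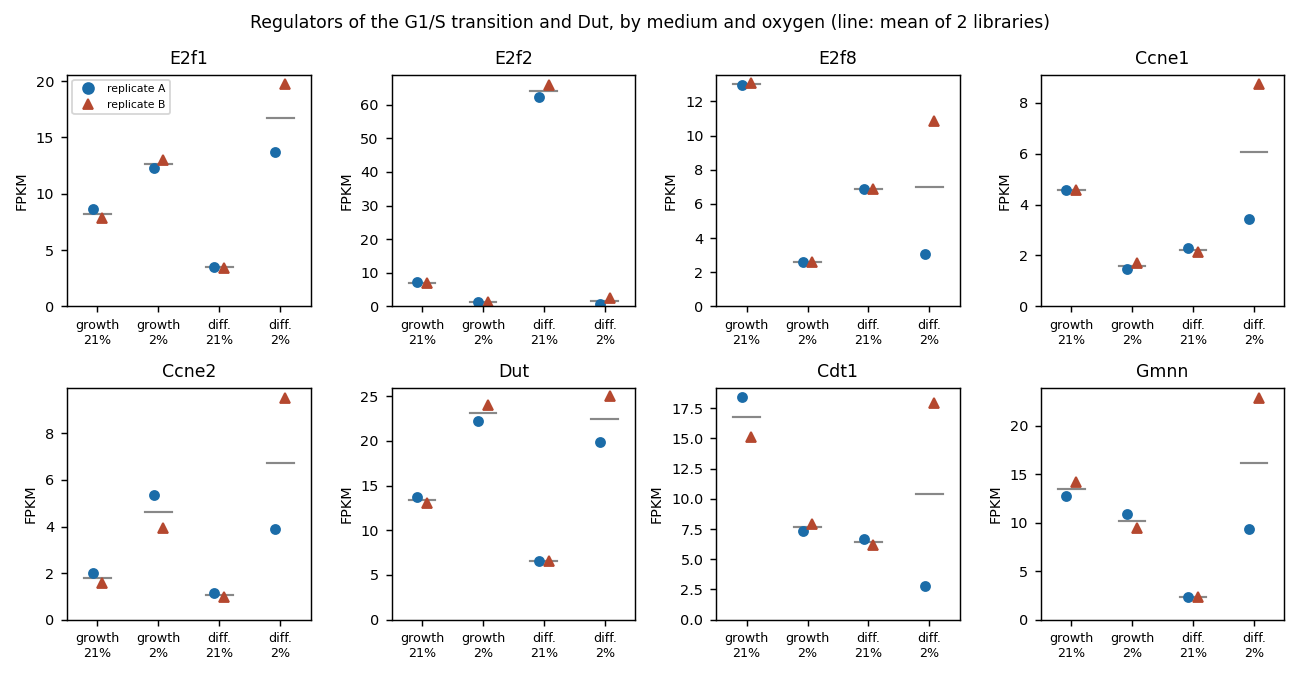
FPKM in each library for E2f1, E2f2, E2f8, Ccne1, Ccne2, Dut, Cdt1 and Gmnn, with circles for replicate A, triangles for replicate B and a line at the mean of the 2 libraries of a condition. E2f2 stands at 62.4 and 65.7 FPKM in normoxic differentiation medium and below 10 FPKM elsewhere, and only in hypoxic differentiation medium do the replicates lie well apart.

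Nucleotide supply also split under hypoxia. Dut, the dUTPase that keeps uracil out of DNA, was 13.7 and 13.0 FPKM in normoxic and 22.2 and 24 FPKM in hypoxic growth medium (0.74 ± 0.12, adjusted p 0.00327 with all 8 libraries, limma). Tk1 was 47.5 and 39.4 FPKM against 13.6 and 12.9 FPKM (-1.63 ± 0.69, adjusted p 0.101 with 8 libraries and 0.000306 with 6). Rrm2 was 42.9 and 41.5 FPKM against 38.4 and 32.5 FPKM (-0.25 ± 0.45, adjusted p 0.695). Within this role 3 of 5 genes (Tk1, Rrm1 and Tyms) were lower in the fit of 6 libraries, 1 (Dut) was higher and Rrm2 did not pass. Among all tested genes 37.1% were called lower and 18% higher in that fit. With all 8 libraries only Dut passed.

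Of the 11 licensing genes, 9 were lower in the fit of 6 libraries and none in the fit of 8, where 10 of the 50 genes had an unadjusted p under 0.05. Cdt1 was 18.4 and 15.1 FPKM in normoxic and 7.33 and 7.95 FPKM in hypoxic growth medium (-1.03 ± 0.65, adjusted p 0.243 with 8 libraries and 0.000736 with 6, limma). Gmnn was 12.7 and 14.2 FPKM against 10.9 and 9.44 FPKM, so the ratio of Cdt1 to Gmnn was 0.671 and 0.842 in hypoxic growth medium, the reverse of its direction with differentiation medium. Cdc6 was 1.5 and 1.33 FPKM against 1.18 and 1.46 FPKM (-0.06 ± 0.60, adjusted p 0.952), and its groups overlapped. The summed Mcm2 to Mcm7 level was 79.3 and 76.8 FPKM.

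Of the 6 helicase activation genes, 2 were lower in the fit of 6 libraries, near the 37.1% of all tested genes called lower there. Gins1 was 4.90 and 5.27 FPKM in normoxic and 2.69 and 2.5 FPKM in hypoxic growth medium (-0.76 ± 0.38, adjusted p 0.157 with 8 libraries and 0.00131 with 6, limma). Gins4 was 15.1 and 14.6 FPKM against 15.6 and 15.4 FPKM (0.06 ± 0.10, adjusted p 0.683). In the clamp loader, 5 of 6 clamp and loader genes were lower in the fit of 6 libraries, with Rfc3 at 42.1 and 36.8 against 21.1 and 18.2 FPKM (-0.97 ± 0.40, adjusted p 0.0935 with 8 libraries and 0.000765 with 6) and Rfc1, the large subunit, at 11.8 and 13.3 against 11.9 and 11.4 FPKM (-0.10 ± 0.15, adjusted p 0.652).

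Of the polymerase and primase genes, 4 of 8 were lower in the fit of 6 libraries, not far from the 37.1% of all tested genes. Prim1 was 15.6 and 17.1 FPKM in normoxic and 9.55 and 8.80 FPKM in hypoxic growth medium (-0.77 ± 0.45, adjusted p 0.216 with 8 libraries and 0.00128 with 6, limma), and Pola2 was 10.0 and 9.07 against 9.94 and 9.11 FPKM (-0.0029 ± 0.21, adjusted p 0.999). Pold2, which did not pass with medium, was lower with hypoxia in both fits, at 20.7 and 17.0 against 11.1 and 12.1 FPKM. Rpa1 was likewise lower in both fits, from 25.2 and 25 FPKM to 12.3 and 11.7 FPKM (-1.01 ± 0.31, adjusted p 0.0396 with 8 libraries). Rpa2 was 9.48 and 7.56 against 6.57 and 6.89 FPKM (-0.29 ± 0.39, adjusted p 0.584).

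Of the chromatin and repair genes, Chaf1b and Uhrf1 were lower in the fit of 6 libraries and Chaf1a and Brca1 did not pass. Among all tested genes 37.1% were called lower in that fit. Chaf1a and Chaf1b are subunits of the same histone chaperone, chromatin assembly factor 1. Chaf1b was 6.36 and 5.05 FPKM in normoxic and 2.15 and 2.61 FPKM in hypoxic growth medium (-0.98 ± 0.56, adjusted p 0.201 with 8 libraries and 0.00137 with 6, limma). Chaf1a was 7.71 and 7.67 FPKM against 8.01 and 7.41 FPKM (0.0027 ± 0.60, adjusted p 1 with 8 libraries).

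In hypoxic differentiation medium the replicates gave different pictures. Replicate B exceeded replicate A for every one of the 50 genes, and for 7834 of the 12389 tested genes. For 39 of the 50 the difference was at least 2-fold, where 8.23% of all tested genes were at least 2-fold higher in B and 1.78% at least 2-fold lower. The ratio of B to A had a median of 2.85 and ran from 1.18 (Rpa3) to 8.49 (Cdc6). Replicate B was the highest of the 8 libraries for 42 of the 50 genes, and for 2548 of the 12389 tested genes.

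The spread between these replicates was largest in some roles and smaller in others. The chromatin and repair genes had a median ratio of 5.07, from 4.79 (Chaf1b) to 5.42 (Uhrf1), and the licensing genes one of 3.74, from 2.16 (Orc6) to 8.49 (Cdc6). The clamp and clamp loader genes had a median ratio of 1.99, with Pcna at 90.4 FPKM in A and 156.5 FPKM in B. The 11 genes under 2-fold were Gins3, Gins4, Pcna, Rfc1, Rfc2, Pola2, Prim2, Pold2, Rpa3, Dut and E2f1. Cdc6, the licensing factor at the upper end, was 0.865 FPKM in A and 7.34 FPKM in B.

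Other gene lists moved between these libraries as well. All 20 mitosis genes were higher in B, with a median ratio of 6.28 (4.5 to 7.95), and 47 of 52 other replication genes were, with a median of 1.87. None of the 6 muscle differentiation markers (median ratio 0.461) and none of the 6 hypoxia markers (median ratio 0.814) was higher in B, while 6 housekeeping genes had a median ratio of 1.06. Replicate B was also the shallowest library by relative depth and A the deepest. The part of these differences in the results on hypoxic differentiation medium was not tested.

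**Figure D4:**
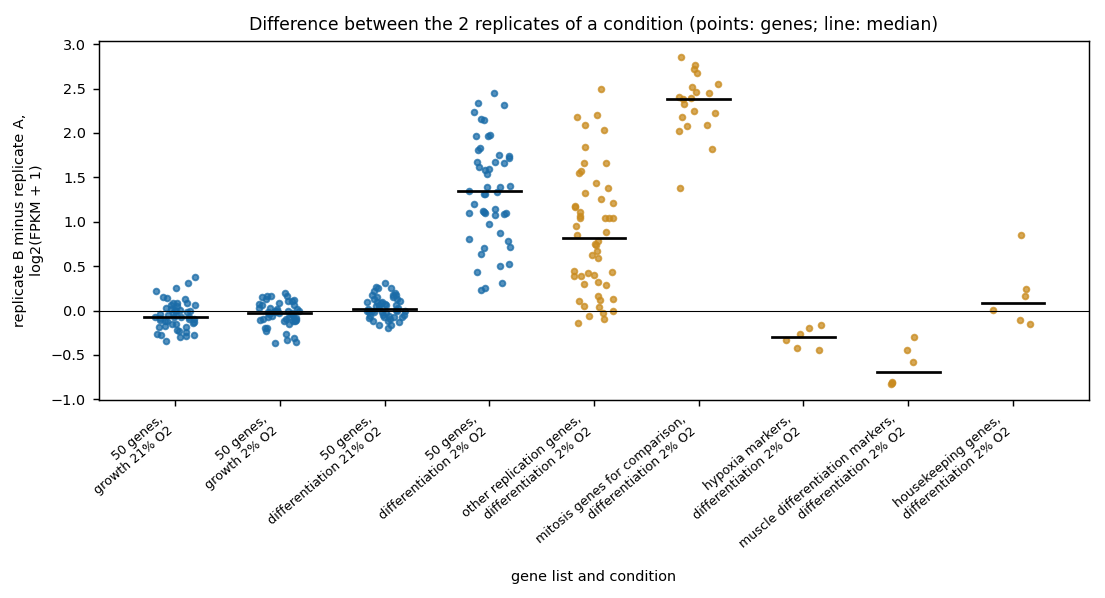
Difference between replicate B and replicate A on the log2(FPKM + 1) scale, one point per gene with a line at the median. The 50 genes lie near zero in 3 conditions and between 0.23 and 2.45 in hypoxic differentiation medium, where the mitosis genes lie higher still and the hypoxia and muscle markers lie below zero.

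The third comparison asked how the genes respond to differentiation medium at 2% oxygen. With both replicates in the fit, 5 of the 50 genes were higher than in hypoxic growth medium and none was lower, by limma at an adjusted p under 0.05, and 11 had an unadjusted p under 0.05. The background was 23.3% of tested genes called higher and 17.6% lower. The 5 were Gins4, Pcna, Ccne1, Rpa1 and Rpa3. The median change was 0.46, against 0.07 for all tested genes.

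For all 5 genes that passed, replicate A also lay above both hypoxic growth libraries. The fit of both replicates, which picked them, favours genes whose replicates agree, so this is no independent support. Gins4 was 15.6 and 15.4 FPKM with growth medium and 20.4 (A) and 24.4 (B) FPKM with differentiation medium (0.50 ± 0.10, adjusted p 0.00919, limma). Pcna was 63.1 and 58.9 FPKM against 90.4 and 156.5 FPKM (0.95 ± 0.23, adjusted p 0.0169). Ccne1 was 1.46 and 1.70 FPKM against 3.42 and 8.75 FPKM (1.35 ± 0.33, adjusted p 0.0183). These genes belong to the helicase, the clamp and the G1/S switch. Rpa1 was 12.3 and 11.7 FPKM against 16.7 and 36.9 FPKM (1.00 ± 0.31, adjusted p 0.0415), and Rpa3 25.2 and 26.4 FPKM against 30.8 and 36.3 FPKM (0.36 ± 0.11, adjusted p 0.0418), both subunits of RPA. None of the 5 passed when only the 4 hypoxic libraries were fitted or when either hypoxic growth library was left out, and Rpa3 passed in 4 of its 16 alternatives. Replicate A lay above both hypoxic growth libraries for 15 of the 50 genes in all, and below both for 31. The share of all tested genes on either side was not counted.

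The replicates gave opposite pictures when taken singly. With replicate A alone for the condition, a fit that assumes the lone library varies as the other groups do, 17 of the 50 genes were lower than in hypoxic growth medium, 6 were higher and 27 did not pass, against 21.7% and 22.3% of tested genes called lower and higher. The lower genes included Cdt1, Mcm5, Mcm6, Tk1, Tyms, Rrm2 and Uhrf1, and the 6 higher ones were Orc6, Gins4, Pcna, Fen1, Rpa1 and Ccne1. With replicate B alone, 48 genes were higher and Pold2 and Dut did not pass, against 33.8% of tested genes called higher and 18.5% lower. Tk1 shows the conflict, at 13.6 and 12.9 FPKM in hypoxic growth medium, 6.11 FPKM in A and 37.7 FPKM in B.

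**Figure D5:**
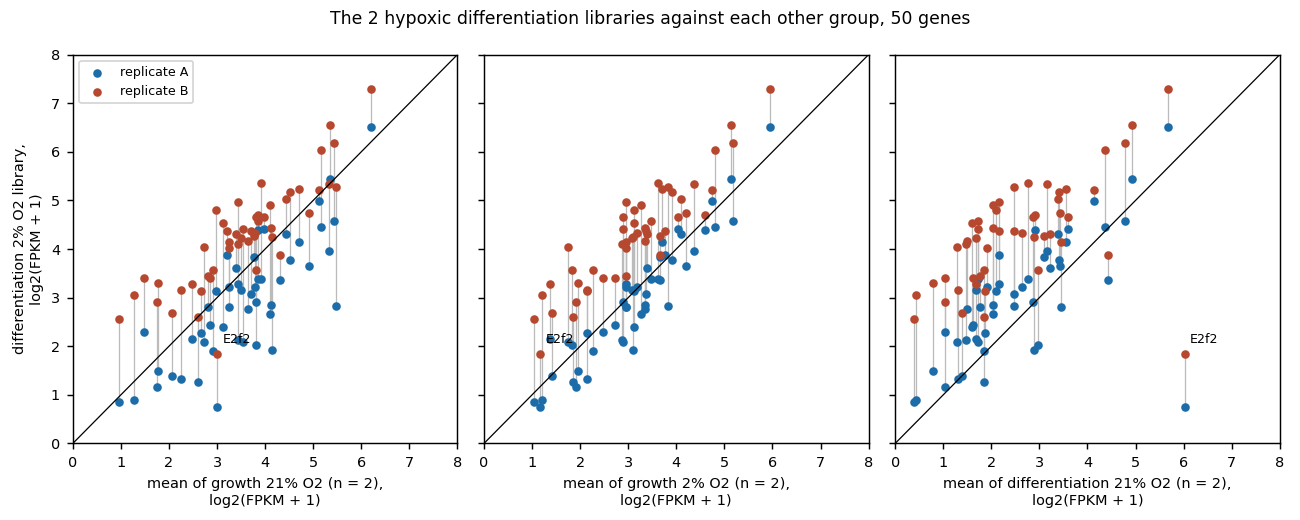
Level of each of the 50 genes in hypoxic differentiation replicates A and B (vertical axis, joined by a line) against the mean of each of the other 3 groups (horizontal axis), all on the log2(FPKM + 1) scale, with the line of equality. Replicate A points fall on both sides of the line in the middle panel, hypoxic growth medium, and replicate B points lie above it. In the right panel, normoxic differentiation medium, most replicate A points lie above the line, and E2f2 lies far below it.

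The fourth comparison set hypoxia against normoxia in differentiation medium. Most of the 50 genes were higher at 2% oxygen, and here both replicates pointed the same way for most of them. In the fit of all 8 libraries 31 were higher and 2, E2f2 and Pold2, were lower, where 37.5% of tested genes were called higher and 27.7% lower. The median change was 1.24, against 0.15 for all tested genes. With replicate A alone 35 were higher and 6 lower (Cdt1, Gins1, Pold2, Rpa2, E2f2 and E2f8), against 36.4% and 30.8% of tested genes. With replicate B alone 48 were higher and 2 lower, against 43.2% and 26.7%.

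The 5 genes with the lowest adjusted p-values were E2f2, Dut, E2f1, Gins4 and Rpa3. E2f2 was 62.4 and 65.7 FPKM in normoxic differentiation medium and 0.674 (A) and 2.58 (B) FPKM in hypoxic differentiation medium (-4.73 ± 0.32, adjusted p 2.61e-05, limma). Dut was 6.55 and 6.52 FPKM against 19.9 and 25 FPKM (1.63 ± 0.12, adjusted p 3.88e-05), and E2f1 was 3.49 and 3.44 FPKM against 13.7 and 19.8 FPKM (1.97 ± 0.16, adjusted p 7.03e-05). E2f1 and E2f2 thus moved in opposite directions here too, with E2f1 the more abundant at 2% oxygen and E2f2 at 21%. Gins4 was 10.9 and 11.2 FPKM against 20.4 and 24.4 FPKM (0.95 ± 0.10, adjusted p 0.000214), and Rpa3 was 15.4 and 17.7 FPKM against 30.8 and 36.3 FPKM (0.98 ± 0.11, adjusted p 0.000331). In these 5 genes the groups did not overlap and the change kept its direction with either replicate alone. They were picked by the fit of both replicates, which favours genes whose replicates agree, so this is no independent support.

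The interaction, the differentiation change at 2% oxygen minus that at 21%, was positive past the threshold for 28 of the 50 genes and negative for 1, E2f2. Among all tested genes 35.4% were called higher and 18.7% lower in this contrast, so that 65.5% of its calls were higher, a share that was 47.3% with median-of-ratios scaling, where 24 of the 50 genes passed. The median was 1.53, against 0.27 for all tested genes. With replicate A alone 38 were positive and 1 negative (37.5% and 22.3% of tested genes), and with replicate B alone 48 and 1 (44.5% and 20.2%). Rpa3 had the lowest adjusted p, with an interaction of 1.35 ± 0.16 (adjusted p 0.000649, limma), followed by E2f2 at -2.90 ± 0.45 (adjusted p 0.00194). Gins4 (0.89 ± 0.14, adjusted p 0.00225), E2f1 (1.41 ± 0.23, adjusted p 0.00260) and Prim2, the large primase subunit (2.00 ± 0.36, adjusted p 0.00382), came next. Prim2 shows its form: at 21% oxygen it was 8.27 and 8.62 FPKM with growth and 2.74 and 2.78 FPKM with differentiation medium, and at 2% oxygen 7.65 and 5.87 FPKM with growth and 8.27 (A) and 15.2 (B) FPKM with differentiation medium. The drop seen at 21% oxygen was not present in either hypoxic replicate.

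Ratios between paired genes set hypoxic differentiation medium apart from normoxic differentiation medium in both replicates. The ratio of Cdt1 to Gmnn was 0.300 in A and 0.785 in B, against 2.91 and 2.63 at 21% oxygen. The ratio of E2f1 to E2f8 was 4.44 in A and 1.82 in B, against 0.506 and 0.502. The ratio of Ccne1 to Ccne2 was 0.878 and 0.918, between the values of normoxic and hypoxic growth medium. The summed Mcm2 to Mcm7 level, by contrast, was 59.0 FPKM in A and 194.6 FPKM in B, on either side of hypoxic growth medium.

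A further 52 replication genes, such as other origin, polymerase and fork proteins, were counted in the same way. In the fit of all 8 libraries 19 were lower and 9 higher in normoxic differentiation medium (30 and 12 in the fit of 6), with a median of -0.57. Read against the 41% of all tested genes called lower and 25.5% called higher (46.2% and 28.7% in the fit of 6), the list of 52 does not exceed the background in the fit of all 8 libraries. The largest changes were those of Ccna2, the S and G2 cyclin (-2.26 ± 0.69, adjusted p 0.0249, limma), Rrm2b, the ribonucleotide reductase subunit used outside S phase (1.66 ± 0.17, adjusted p 0.000184), and Chtf18 of an alternative clamp loader (-1.58 ± 0.52, adjusted p 0.0322). The smallest were those of Mcmbp, Nasp and Rbbp7, at 0.01, 0.03 and 0.10. Rrm2b was 2.14 and 3.2 FPKM in normoxic growth medium and 10.3 and 10.7 FPKM in normoxic differentiation medium, while Rrm2 of the 50 genes was lower there.

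With hypoxia in growth medium 9 of the 52 were lower and 2 higher (19 and 3 in the fit of 6), no larger a share than the 28% and 13.5% of all tested genes (37.1% and 18% in the fit of 6). The largest changes were in Nasp, a histone chaperone (-0.97 ± 0.25, adjusted p 0.0200, limma), Asf1b (-0.93 ± 0.58, adjusted p 0.241) and Ccna2 (-0.91 ± 0.69, adjusted p 0.33), and the smallest in Orc4, Mtbp and Tfdp2. For differentiation medium at 2% oxygen 8 were higher and 3 lower, where 23.3% of all tested genes were called higher and 17.6% lower. The median change of the 52 was 0.38, but -0.10 with replicate A alone and 0.87 with replicate B alone. The largest changes were those of Dck, a deoxynucleoside salvage kinase (1.06 ± 0.23, adjusted p 0.0116, limma), Asf1b (0.95 ± 0.58, adjusted p 0.232) and Pole4 (0.91 ± 0.13, adjusted p 0.00293), and the smallest those of Dscc1, E2f3 and E2f5. Dck was 6.56 and 6.43 FPKM in hypoxic growth medium and 11.1 (A) and 19.2 (B) FPKM in hypoxic differentiation medium.

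For hypoxia in differentiation medium 17 of the 52 were higher and 10 lower, which is no larger a share than the 37.5% and 27.7% of all tested genes in the fit of all 8 libraries. The median change of the 52 was 0.58, with 0.08 for replicate A alone and 0.70 for replicate B alone. The largest changes were those of Dck (2.12 ± 0.23, adjusted p 0.000227, limma), Cdc7, the kinase that fires licensed origins (1.74 ± 0.38, adjusted p 0.00623), and Donson (1.69 ± 0.31, adjusted p 0.00286), and the smallest those of Mcmbp, E2f6 and Recql4. The interaction was positive for 16 and negative for 2, again no larger a share than the 35.4% and 18.7% of all tested genes with all 8 libraries. For the 52 genes the interaction had a median of 0.73, with 0.31 for replicate A alone and 1.07 for replicate B alone. Its largest values were those of Chtf18 (2.16 ± 0.73, adjusted p 0.0440), Cdc7 (1.91 ± 0.54, adjusted p 0.0226) and Dck (1.90 ± 0.32, adjusted p 0.00292), by limma, and the smallest those of Shmt1, E2f6 and Pole4. The 20 mitosis genes were lower in normoxic differentiation medium in 19 cases, with a median of -2.26, beside -1.02 for the 50 replication genes, and the difference was not tested. With hypoxia in growth medium none of the 20 passed in the fit of all 8 libraries and 19 were lower in the fit of 6. Against hypoxic growth medium the median change of the 20 was -1.40 with hypoxic differentiation replicate A alone and 0.87 with replicate B alone.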

How the data were processed

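The authors deposited a table of FPKM values with 1 column per RNA-seq library. Per the labels' protocols, Trizol RNA went into stranded total RNA libraries. Per the submitters' processing notes, STAR 2.5.1b, Cufflinks 2.2.1 and the build mm9 were used, and whether strand entered the quantification is not given in the sources used here. Columns were matched to samples by title, and no gene above 0 had identical values in 2 replicates.

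From these values, log2(FPKM + 1) was fitted with limma 3.58.1 (R 4.3.3, intensity trend) for the 12389 genes whose mean reached 1 FPKM in any group. The 4 group means of the 8 libraries leave 4 residual and 2.61 prior degrees of freedom. Tests are two-sided, with Benjamini-Hochberg adjustment and a threshold of 0.05. In a simulation of 12389 genes, every library was drawn around the means of normoxic growth medium with the same spread. Changes were added in normoxic differentiation medium. Of genes changed by 1 log2 unit 91% were recovered, and of those changed by 2, 100%. The real hypoxic differentiation replicates differed far more than those of the other conditions. These shares therefore do not give the power of the real fits. Motifs were searched with Python 3.11.15.

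The 50 genes and the other lists were chosen with earlier results of these data known. Library values are given for any member. Fitted changes are given for the largest and the smallest change of each role and for calls against the majority direction in the contrasts with normoxic growth medium, and in the other contrasts for members past the threshold, or the 5 with the lowest adjusted p where more than 10 passed. The other replication genes are given by counts with the 3 largest and the 3 smallest changes. Promoters shown are those of the most abundant gene of each role with an upstream motif, except Uhrf1, whose stretch lay downstream of another start site of the gene. Alternatives were another pseudocount, no filter, 2 scalings, fits of the compared libraries alone, array weights, robust moderation, a replicate block and each library left out.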

Additional observations from a re-analysis of the deposited data

Results flagged for a closer look

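The response to differentiation medium differed between oxygen levels by the test of the interaction term in limma for 29 of the 50 genes (28 higher and 1 lower at 2% oxygen). Of all tested genes 35.4% were called higher and 18.7% lower. With both directions pooled, the count of 29 is near the share over all genes. By direction, the 28 higher calls stood above their share and the 1 lower call below its share, a difference that was not tested. Rpa3 (1.35), E2f1 (1.41), Gins4 (0.89) and Prim2 (2.00) had a higher log2 change at 2% oxygen than at 21%, and E2f2 had a lower one (-2.90). These 5 passed the threshold in every alternative in which the interaction was fitted, those with replicate A or replicate B of hypoxic differentiation medium left out included. The 5 genes were picked by the fit that holds both replicates, which favours genes whose replicates agree. The replicates of hypoxic differentiation medium differed widely, and the part of that difference in the interaction was not tested.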

How the results depend on the processing

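Medium at 21% oxygen lowered 25 genes with all libraries, 46 with the 4 compared libraries alone, 44 with array weights, 46 with neither hypoxic differentiation library (added after seeing the data), and 13 to 46 with 1 library left out. Hypoxia in growth medium lowered 6, against 27, 18, 31 and 1 to 31 in the same order, and 3 with no filter. In hypoxic differentiation against hypoxic growth medium 5 passed, against 3 with no filter, 0 with the compared libraries alone and 0 to 48 with 1 library left out. The 0 came without either hypoxic growth replicate, and the highest count of each comparison without hypoxic differentiation replicate A, while leaving out either library of another group gave the lower counts. The median change of the 50 genes there ran from -0.20 to 1.14 and turned negative without hypoxic differentiation replicate B. For hypoxia in differentiation medium 33 passed, against 16 with the compared libraries alone and 15 to 50 with 1 left out, and for the interaction 29, against 15 to 49. Of single calls with medium at 21% oxygen, Uhrf1 and Gins2 were lost without any 1 library of the groups compared, Gins4 without 3 of these 4 and with median-of-ratios scaling, Tk1 without normoxic differentiation replicate A, and Uhrf1 also with robust moderation. With hypoxia in growth medium, E2f8, E2f1 and Rpa1 were lost without any 1 library of the groups compared, E2f1 and Rpa1 also with no filter and without either normoxic differentiation library. The share of all tested genes called lower moved between settings too. For medium at 21% oxygen it was 41% with all libraries and 46.2% with neither hypoxic differentiation library. For hypoxia in growth medium it was 28% and 37.1% in the same order. How much of the change in the counts of the 50 genes is shared with all tested genes was not tested. With a replicate block the counts of the 50 genes were 25, 6, 4, 35 and 29. Deviations of same-lettered libraries correlated at -0.17 to 0.04. With 1 pair of libraries per condition, this cannot settle whether the letters pair them. Near zero some signs turned, and the cause was not tested. For hypoxia in growth medium, median-of-ratios and upper-quartile scaling gave Rfc1 0.028 and 0.066, Cdc6 0.019 and 0.043, and Pola2 0.12 and 0.16. With 1 library left out, Cdc6 ran from -0.14 to 0.025, Pola2 from -0.068 to 0.062, Chaf1a from -0.047 to 0.052, and Pold2 with medium at 21% oxygen from -0.020 to 0.25. The share of all calls that were higher was, as deposited, with median-of-ratios and with upper-quartile scaling, 38.4%, 53.2% and 43.2% for medium at 21% oxygen, 32.6%, 45.2% and 49.7% for hypoxia in growth medium, 56.9%, 52.1% and 44.3% for medium at 2% oxygen, 57.5%, 47.2% and 55.7% for hypoxia in differentiation medium, and 65.5%, 47.3% and 54.2% for the interaction. The deposited values keep no absolute depth, so no counting error can be given for low genes such as Orc1 and Cdc6.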
